A study of Mus musculus with 24 samples.

Results

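The response of the colon to dextran sulfate sodium (DSS) was compared between mice with Axin1 knocked out in intestinal epithelium only (KO) and wild-type (WT) mice. The measure was an interaction for each gene, the log2 change of KO colon between day 7 of DSS and no treatment minus the same change in WT colon, so that a negative value means a lower or more negative response in KO. It used 12 of the 24 libraries of the series, 3 in each of 4 groups: KO mice taken at day 7 of DSS, untreated KO mice, WT mice taken at day 7 of DSS, and untreated WT mice. All 4 groups were C57BL/6 mice and all tissue was washed colon. Genes of smooth muscle and of immune cells were measured in it too, while the deletion is limited to the epithelium. DSS is a polymer given in drinking water that injures the colonic epithelium and brings on colitis. No source used here gives its dose, the age or sex of the mice, or the driver of the deletion. The libraries are described as biological replicates. The interaction was tested for 18102 genes with edgeR's quasi-likelihood F test in a fit that also held the 6 colon libraries of day 13, and each adjusted p is by the Benjamini-Hochberg method over all of these genes. The 34 gene lists that group the genes below hold 676 symbols, of which 645 were tested.

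Axin1 holds together the proteins that tag beta-catenin for breakdown, and beta-catenin is the messenger through which Wnt ligands keep crypt stem cells dividing. In DSS colitis, epithelium is lost, neutrophils and monocytes enter the wall, T cells and interferons raise antigen presentation, and the crypts regrow from surviving stem and progenitor cells. Interferons act through factors that bind interferon-stimulated response elements in promoters, and the genes so controlled include nucleic acid sensors, antiviral enzymes and the machinery of antigen presentation.

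Total counts ran from 15.65 M to 28.07 M, with a median of 22.7 M, per library, and 22680 to 23800 genes had at least 1 count. Defining markers of colonic epithelium were present in every library, with Epcam between 1345 and 1896 CPM (counts scaled to the same library total), and the squamous marker Krt5 was at most 1.302 CPM. Other epithelial markers varied more. Cdx2 ran from 9.039 to 317.7 CPM, Car1 from 569.3 to 11440 CPM and Muc2 from 900 to 10180 CPM, each highest in an untreated KO library. The libraries of day 7 and of untreated colon also differed in sex: the Y-linked gene Ddx3y was above 1 CPM in 1 of 3 KO libraries at day 7, in 3 of 3 untreated KO libraries, in 0 of 3 WT libraries at day 7 and in 2 of 3 untreated WT libraries. Untreated KO replicate 3 and WT day 7 replicate 2 stood apart. Untreated KO replicate 3 had the highest level of the 12 libraries for 30 of 30 type I interferon genes and 22 of 26 fatty acid oxidation genes. WT day 7 replicate 2 was the highest for 20 of 20 genes of enteric neurons and glia, 19 of 20 genes of smooth muscle and 16 of 18 neutrophil genes, and it had the lowest total count. The part of sex and of these libraries in the results was not tested beyond the fits that leave libraries out or add Y-linked expression as a covariate.

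Axin1 itself (chr17:26138688-26195811 on GRCm38) had 15.04, 15.2 and 15.7 CPM in KO at day 7 and 17.95, 16.8 and 14.5 CPM in untreated KO, against 47.4, 45.3 and 49.1 CPM in WT at day 7 and 49.9, 53.5 and 47.7 CPM in untreated WT. The KO libraries all lay below the WT libraries and the level was alike at both times. Its interaction was -0.01 ± 0.16 on the log2 scale, within 1 SE of 0.

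No gene passed an adjusted p of 0.05 for the interaction in edgeR (0 of 18102, or 0%), and the smallest adjusted p was 0.168. At an unadjusted p under 0.05 there were 1244 genes with a higher response in KO (6.87% of the genes tested) and 1243 with a lower one (6.87%), together 2487 or 13.7%. By sign alone, 50.8% of genes were above 0 and 49.2% below. Between genotypes at a single time, 1 gene passed at day 7 (Axin1, 0.00552%) and 2 passed without treatment (Axin1 and Apol7a, 0.011%). DESeq2 on the same counts called 349 genes, 113 higher and 236 lower, with 2814 at an unadjusted p under 0.05. Limma voom with sample quality weights called 246, 186 higher and 60 lower. The calls of these tools shared 103 genes, which is 29.5% of the DESeq2 calls and 41.9% of the voom calls. Every value of the interaction given below is therefore a size with its standard error from edgeR, and none of these genes passed edgeR's test for it.

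Within each genotype the test did make calls. In KO, 2288 genes (12.6%) differed at day 7, of which 1552 rose (8.57% of the genes tested) and 736 fell (4.07%). In WT, 2949 genes (16.3%) differed, of which 1543 rose (8.52%) and 1406 fell (7.77%). With Y-linked expression as a covariate, 1098 genes passed in KO and 896 in WT. The responses share no library. A total of 1086 genes passed in both genotypes, which is 47.5% of the KO calls and 36.8% of the WT calls, and 1079 of them moved the same way. Across the 18102 genes, which are not independent replicates, Pearson's r between the responses was 0.30 and Spearman's rank correlation was 0.36. By levels alone, 2579 genes (14.2%) had day 7 libraries that did not overlap the untreated ones in either genotype and moved the same way, while 183 (1.01%) moved opposite ways.

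**Figure D1:**
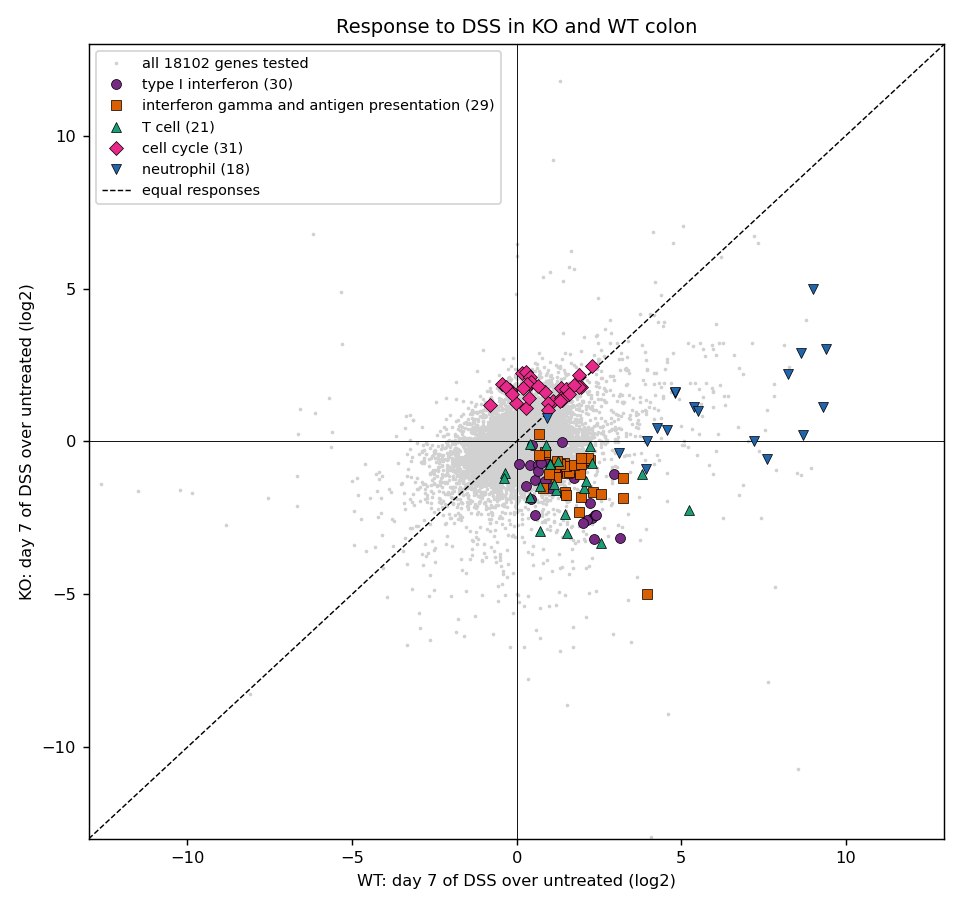
Each point is a gene, with its log2 change between day 7 of DSS and no treatment in KO on the vertical axis and in WT on the horizontal axis; grey points are all 18102 genes tested and coloured symbols are members of 5 lists, with the number tested in brackets. The points of both interferon lists lie in the lower right quadrant with few exceptions, and all 31 cell cycle genes lie above 0 on the KO axis.

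Genes answering to interferon had lower responses in KO almost throughout. Of the 29 tested genes of interferon gamma and antigen presentation, all 29 had an interaction below 0, 28 of them at an unadjusted p under 0.05 against 6.87% of all genes in that direction, and their median interaction was -2.54 against 0.01 for all genes. Their median change was -1.01 in KO and 1.52 in WT. In the test within each genotype, 0 of the 29 rose and 2 fell in KO (Irgm2 and Ido1), against 8.57% and 4.07% of all genes. In WT 14 rose and 0 fell, against 8.52% and 7.77% of all genes. The difference had a part from each time: 23 of the 29 had KO libraries all below the WT libraries at day 7 (12.9% of all genes), and 12 had KO libraries all above the WT libraries before treatment (7.28% of all genes). In bulk tissue, fewer cells of a type and less RNA per cell cannot be told apart.

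Ido1 (chr8:24584136-24597009), which encodes the enzyme that breaks down tryptophan in response to interferon, had 0.416, 0.285 and 0.139 CPM in KO at day 7 and 9.82, 1.28 and 16.01 CPM in untreated KO, against 11.3, 1.302 and 15.7 CPM in WT at day 7 and 0.799, 0.460 and 0.564 CPM in untreated WT. Every KO library was lower at day 7 than every untreated KO library, and every WT library was higher. Ido1 fell in KO (-4.98 ± 1.28, SE, adjusted p = 0.0196) and rose in WT (3.95 ± 1.17, adjusted p = 0.0330), and the interaction was -8.94 ± 1.73 (unadjusted p = 1.19e-04).

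Cd274, which encodes the checkpoint ligand PD-L1, is in none of the lists and was named for its small interaction p. It had 4.12, 4.55 and 3.94 CPM in KO at day 7 and 39.2, 10.02 and 14.1 CPM in untreated KO, against 11.5, 14.3 and 20.6 CPM in WT at day 7 and 5.55, 5.29 and 5.51 CPM in untreated WT. It fell in KO (-2.33 ± 0.53, adjusted p = 0.0107) and did not pass in WT (1.502 ± 0.52, adjusted p = 0.0611), although the WT libraries of the 2 times did not overlap. The interaction was -3.83 ± 0.75.

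Nlrc5, the transactivator of MHC class I genes, had 4.81, 5.41 and 7.96 CPM in KO at day 7 and 16.8, 3.73 and 21.0 CPM in untreated KO, against 14.96, 18.4 and 34.6 CPM in WT at day 7 and 2.35, 1.92 and 2.996 CPM in untreated WT. It rose in WT (3.22 ± 0.71, adjusted p = 0.00833), while the KO libraries overlapped, and the interaction was -4.42 ± 0.96. The interaction was -3.12 ± 0.72 for Irgm2, an immunity-related GTPase, and -2.54 ± 0.59 for Psmb8, a subunit of the immunoproteasome. Ifi47, another interferon-inducible GTPase, is also in none of the lists and was named for its small interaction p. It had 1.76, 3.58 and 4.12 CPM in KO at day 7 and 15.3, 2.95 and 48.2 CPM in untreated KO, against 16.8, 10.6 and 22.1 CPM in WT at day 7 and 1.81, 1.23 and 2.39 CPM in untreated WT, and passed in both genotypes in opposite directions (-2.81 ± 0.87 in KO with adjusted p = 0.0467, and 3.19 ± 0.90 in WT with adjusted p = 0.0267). Cd74, the invariant chain of MHC class II, ranged from 101 to 112 CPM in KO at day 7 and from 92.7 to 224 CPM in untreated KO, against 221 to 870.2 CPM in WT at day 7 and 80.5 to 132 CPM in untreated WT. The KO libraries of both times overlapped and the WT libraries did not. It gave -0.60 ± 0.60 in KO (adjusted p = 0.566) and rose in WT (2.22 ± 0.62, adjusted p = 0.0257), with an interaction of -2.82 ± 0.85.

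The type I interferon list had the same direction, with values that moved more when untreated KO replicate 3 was left out. All 30 members had an interaction below 0, 27 at an unadjusted p under 0.05 against 6.87% of all genes in that direction. The median was -2.29, made of a median change of -1.24 in KO and 1.17 in WT. The median log2 difference of KO from WT was 1.68 without treatment and -0.62 at day 7. Untreated, 13 of the 30 had KO libraries all above the WT libraries (7.28% of all genes). At day 7, 9 of the 30 had KO libraries all below the WT libraries (12.9% of all genes). In the test within each genotype, 5 fell and 0 rose in KO (4.07% and 8.57% of all genes). In WT 1 rose and 0 fell (8.52% and 7.77% of all genes), so this list gave no excess of calls in WT. Without untreated KO replicate 3 the median was -1.37 and 20 members had an unadjusted p under 0.05; for the interferon gamma list the same values were -2.57 and 28. The summed level of the 30 genes was 667 to 862 CPM in KO at day 7 and 632 to 3843 CPM in untreated KO, against 810.0 to 1513 CPM in WT at day 7 and 520.0 to 561 CPM in untreated WT. Thus the WT libraries of the 2 times did not overlap and the KO libraries did. AW112010, an interferon-inducible transcript outside the lists, had 37.9, 39.8 and 50.6 CPM in KO at day 7 and 119, 73.4 and 69.2 CPM in untreated KO, against 90.9, 86.2 and 142 CPM in WT at day 7 and 46.2, 56.9 and 44.2 CPM in untreated WT. It fell in KO (-1.03 ± 0.30, adjusted p = 0.0345) and rose in WT (1.12 ± 0.30, adjusted p = 0.0209).

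Zbp1 (chr2:173206612-173218923), a sensor of left-handed nucleic acid that can start inflammatory cell death, had 26.0, 44.7 and 36.2 CPM in KO at day 7 and 60.9, 21.6 and 142 CPM in untreated KO, against 67.2, 81.3 and 119 CPM in WT at day 7 and 11.1, 10.6 and 12.7 CPM in untreated WT. The WT libraries at day 7 were all above the untreated ones and the KO libraries overlapped. It gave -1.07 ± 0.49 in KO (adjusted p = 0.181) and rose in WT (2.96 ± 0.53, adjusted p = 0.00292). The interaction was -4.03 ± 0.72, and -3.17 without untreated KO replicate 3.

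Oasl2, of the oligoadenylate synthetase family of antiviral proteins, had 28.1, 49.0 and 34.8 CPM in KO at day 7 and 87.0, 28.95 and 521 CPM in untreated KO, against 46.3, 71.0 and 123 CPM in WT at day 7 and 9.38, 11.5 and 28.4 CPM in untreated WT. Its interaction of -4.80 ± 1.11 became -2.92 without untreated KO replicate 3, the library in which its level was highest. Oas3, of the same family, gave -6.30 ± 1.47, and -3.45 without that library. Parp14, an ADP-ribosyltransferase, gave -2.15 ± 0.50, and -1.65 without it.

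The apolipoprotein L genes, a cluster of intracellular lipid-binding proteins on chromosome 15 in the mouse, were another such group, with 8 of 8 tested members below 0, 7 at an unadjusted p under 0.05, and a median of -3.02. Their median log2 difference of KO from WT was 2.04 without treatment and -1.13 at day 7. Untreated, 3 of the 8 had KO libraries all above the WT libraries (7.28% of all genes). At day 7, 5 of the 8 had KO libraries all below the WT libraries (12.9% of all genes). Apol7a (chr15:77388219-77399110) had the smallest p of all genes. It had 11.3, 10.4 and 10.7 CPM in KO at day 7 and 22.5, 18.1 and 51.7 CPM in untreated KO, against 14.6, 16.3 and 16.2 CPM in WT at day 7 and 4.25, 5.09 and 4.69 CPM in untreated WT. It fell in KO (-1.51 ± 0.35, adjusted p = 0.0118) and rose in WT (1.75 ± 0.36, adjusted p = 0.00601), and the libraries did not overlap in either genotype. The interaction was -3.26 ± 0.50 (unadjusted p = 1.11e-05, adjusted p = 0.168), and -2.66 without untreated KO replicate 3. Apol7a was also higher in untreated KO than in untreated WT (2.71 ± 0.37, adjusted p = 0.0230). Apol10a and Apol9a had interactions of -8.59 ± 2.52 and -5.16 ± 1.37, which became -3.12 and -3.05 without that library. The apolipoprotein L genes are close copies of each other, so reads shared between them make the single values uncertain.

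The promoters of these genes are shown because interferon acts through promoter elements with a known core. The core searched was a pair of GAAA separated by any 2 bases. Searched on both strands with overlaps counted, this motif was in 1079 of the 27025 genes with a promoter in RefSeq (GRCm38.p6), or 3.99%, with a promoter taken as 250 bases before to 50 bases after the start. It was in 12 of 20 type I interferon genes found there, 9 of 19 genes of interferon gamma and antigen presentation, 7 of 10 apolipoprotein L genes, 1 of 14 T cell genes and 1 of 26 cell cycle genes. The interferon lists are made of interferon response genes, so these shares describe the lists and not the responses measured here. Among the 12 named genes with the smallest p in each direction, it was in 1 of 10 lower and 1 of 9 higher genes found there. Oas3, Irgm2 and Apol9a carry the motif, in capitals, and Apol7a does not. Each sequence is given on the strand of its gene.
Oas3 (chr5:120777610-120777909, minus strand): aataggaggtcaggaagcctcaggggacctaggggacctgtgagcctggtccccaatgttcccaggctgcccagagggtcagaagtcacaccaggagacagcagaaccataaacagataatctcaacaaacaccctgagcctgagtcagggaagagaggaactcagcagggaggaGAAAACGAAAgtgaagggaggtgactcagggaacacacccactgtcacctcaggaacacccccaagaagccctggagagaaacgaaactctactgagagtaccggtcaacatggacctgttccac
Irgm2 (chr11:58214727-58215026, plus strand): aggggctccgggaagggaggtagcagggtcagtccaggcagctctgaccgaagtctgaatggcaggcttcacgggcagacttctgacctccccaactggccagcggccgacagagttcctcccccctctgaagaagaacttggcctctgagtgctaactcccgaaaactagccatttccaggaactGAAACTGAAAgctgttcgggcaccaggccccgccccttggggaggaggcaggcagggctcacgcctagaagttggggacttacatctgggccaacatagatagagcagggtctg
Apol9a (chr15:77411031-77411330, minus strand): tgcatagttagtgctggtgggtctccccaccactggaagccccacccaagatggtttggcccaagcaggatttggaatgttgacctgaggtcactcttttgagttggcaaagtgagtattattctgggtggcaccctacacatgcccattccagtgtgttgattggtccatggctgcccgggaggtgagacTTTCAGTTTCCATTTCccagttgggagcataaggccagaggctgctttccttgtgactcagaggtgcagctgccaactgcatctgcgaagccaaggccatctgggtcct
Apol7a (chr15:77399061-77399360, minus strand): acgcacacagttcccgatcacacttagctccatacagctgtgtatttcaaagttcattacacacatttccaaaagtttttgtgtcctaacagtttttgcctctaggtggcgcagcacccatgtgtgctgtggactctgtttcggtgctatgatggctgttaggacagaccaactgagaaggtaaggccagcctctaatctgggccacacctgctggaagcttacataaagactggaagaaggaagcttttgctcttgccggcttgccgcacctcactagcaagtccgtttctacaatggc
The Apol9a capitals are 2 overlapping matches on the opposite strand. The promoter of Oasl2 in the same table holds no match either.

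**Figure D2:**
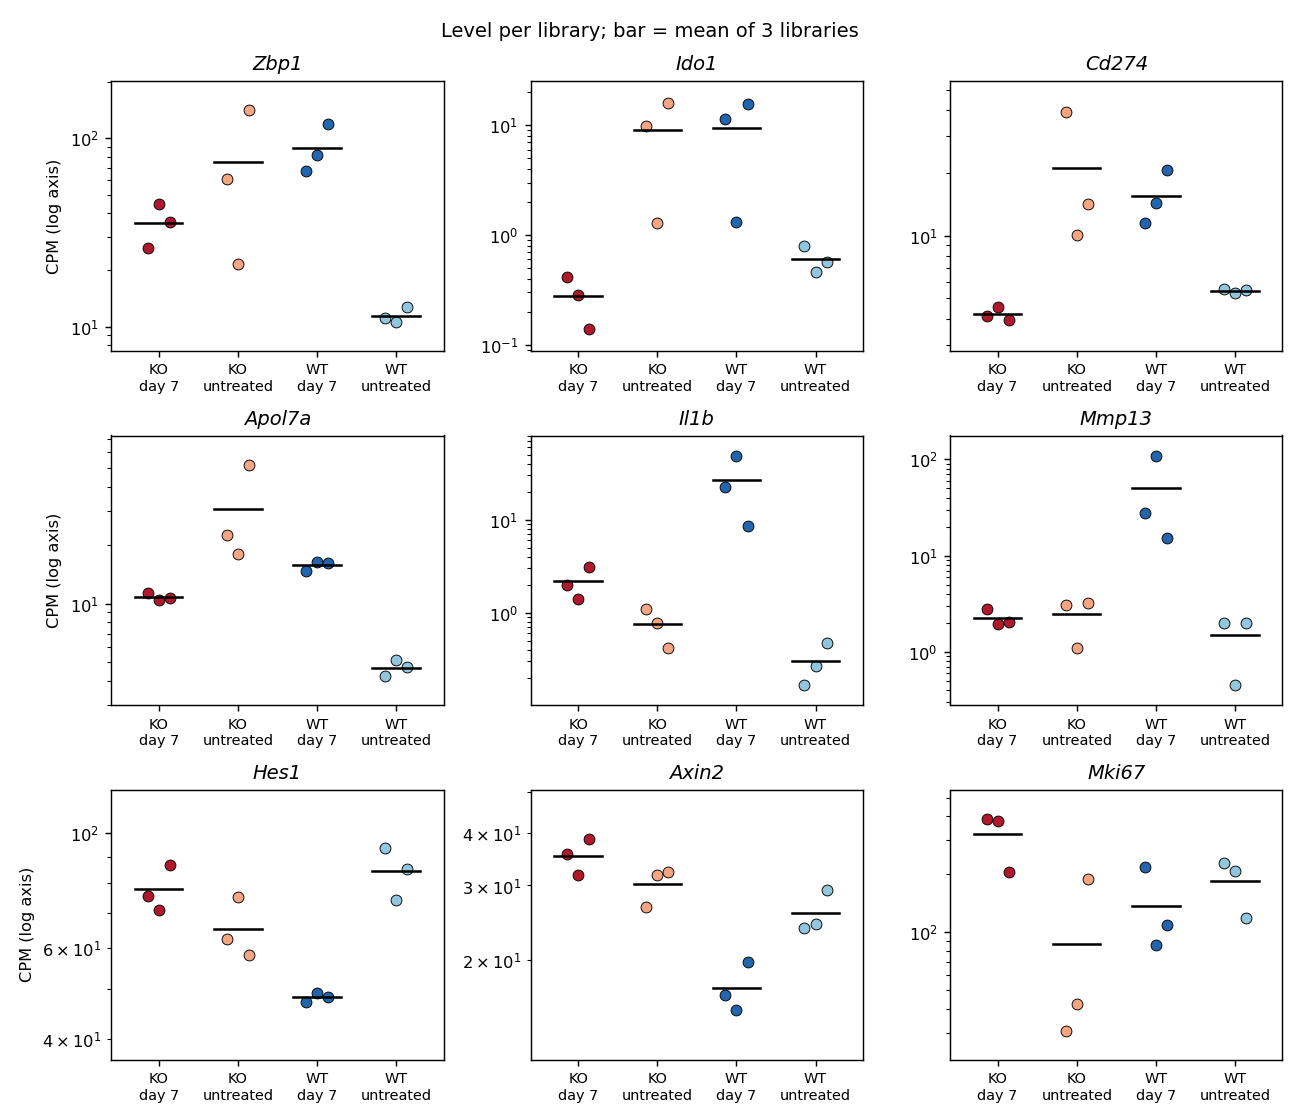
Levels of 9 named genes in CPM on a log axis, a point per library and a bar at the mean of 3 libraries, for KO at day 7, untreated KO, WT at day 7 and untreated WT. For Zbp1, Ido1, Cd274 and Apol7a the WT libraries are all higher at day 7, for Il1b and Mmp13 the WT libraries at day 7 are above all others, and for Hes1 and Axin2 the WT libraries are all lower at day 7 while the KO libraries overlap.

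Some genes of T cells fell in KO and others rose in WT. All 21 tested members had an interaction below 0, 15 at an unadjusted p under 0.05 against 6.87% of all genes in that direction, with a median of -2.56. Their median change was -1.28 in KO, where 6 fell and 0 rose (4.07% and 8.57% of all genes). In WT it was 1.18, and 6 rose and 0 fell (8.52% and 7.77% of all genes). At day 7, 17 of 21 had KO libraries all below the WT libraries (12.9% of all genes). Without treatment, 8 of 21 had KO libraries all above the WT libraries (7.28% of all genes). With no overlap in either genotype, 7 of 21 moved opposite ways (1.01% of all genes).

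Their levels were low, which limits the single values. Trac, the constant part of the T cell receptor alpha chain, had 0.278, 0.407 and 0.509 CPM in KO at day 7 and 1.10, 1.24 and 1.10 CPM in untreated KO, against 1.60, 2.78 and 0.933 CPM in WT at day 7 and 0.462, 0.153 and 0.651 CPM in untreated WT. Its libraries at day 7 lay below the untreated ones in KO and above them in WT. It gave -1.52 ± 0.55 in KO (adjusted p = 0.0877), rose in WT (2.06 ± 0.55, adjusted p = 0.0214), and had an interaction of -3.57 ± 0.78. Ctla4, an inhibitory receptor of activated and regulatory T cells, had 0.185, 0.122 and 0.370 CPM in KO at day 7 and 0.626, 0.391 and 0.418 CPM in untreated KO, against 1.68, 3.91 and 1.03 CPM in WT at day 7 and 0.168, 0.192 and 0.0868 CPM in untreated WT, with an interaction of -4.90 ± 0.99. Gzmb, a protease of cytotoxic granules, had 0.185, 0.244 and 0.417 CPM in KO at day 7 and 1.02, 0.284 and 2.78 CPM in untreated KO, against 1.64, 1.72 and 1.96 CPM in WT at day 7 and 0.0420, 0 and 0.0868 CPM in untreated WT. It rose in WT (adjusted p = 0.00427), with no overlap, and its fold is not given because the untreated WT libraries held almost none. Zap70, the kinase of the T cell receptor, had an interaction of -3.40 ± 0.77.

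Genes of neutrophils passed the test in WT and not in KO, although the KO levels of some of them were also higher at day 7. Of 18 neutrophil genes, 0 rose in KO (8.57% of all genes) and 15 rose in WT (8.52% of all genes). By levels alone, 9 of the 18 had KO libraries at day 7 all above the untreated ones (3455 of all 18102 genes). In WT 16 did (2930 of all genes). At day 7, 16 of the 18 had KO libraries all below the WT libraries (12.9% of all genes). Their median change was 0.89 in KO and 5.45 in WT, and their median interaction was -4.39, with 18 of 18 below 0 and 6 at an unadjusted p under 0.05. With the 5 members that had no count in a group set at a floor of 3 counts over that group, the medians were 0.89, 4.82 and -4.23. The neutrophil genes summed to 138 to 154 CPM in KO at day 7 and 7.64 to 130.2 CPM in untreated KO, against 305 to 506 CPM in WT at day 7 and 107 to 165 CPM in untreated WT. Most of the untreated sums came from members other than the 4 defining markers S100a8, S100a9, Csf3r and Cxcr2. These 4 summed to 0.976 to 2.54 CPM in KO at day 7 and 0.426 to 0.978 CPM in untreated KO. In WT they summed to 13.5 to 134 CPM at day 7 and 0.306 to 0.738 CPM untreated. S100a8, an alarmin of neutrophils, had 0.509, 0.0813 and 0.370 CPM in KO at day 7 and 0.0391, 0 and 0.0760 CPM in untreated KO, against 13.4, 37.9 and 4.66 CPM in WT at day 7 and 0.0420, 0.0383 and 0.0434 CPM in untreated WT. The WT libraries at day 7 were all higher than any KO library. S100a8 did not pass in KO (adjusted p = 0.375) and rose in WT (adjusted p = 0.00282), and its interaction had an unadjusted p of 0.154, with untreated levels too low for a fold. Csf3r, the receptor of granulocyte colony-stimulating factor, had an interaction of -3.83 ± 1.24, and Mmp9, a gelatinase stored in neutrophil granules, of -3.51 ± 1.27.

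Of 24 macrophage genes, 22 had an interaction below 0 and 11 an unadjusted p under 0.05, or 7 without WT day 7 replicate 2, with a median of -1.11. In KO 1 rose (Cd14, against 8.57% of all genes), and in WT 9 rose (8.52% of all genes). Aif1, a calcium-binding protein of macrophages, had 0.786, 1.99 and 1.85 CPM in KO at day 7 and 3.21, 2.6999 and 2.699 CPM in untreated KO, against 5.63, 7.16 and 5.11 CPM in WT at day 7 and 2.23, 2.41 and 2.34 CPM in untreated WT. Its libraries at day 7 lay below the untreated ones in KO and above them in WT, it rose in WT (1.35 ± 0.31, adjusted p = 0.00984), and the interaction was -2.24 ± 0.44. Tyrobp and Fcer1g, signalling adaptors of myeloid receptors, had interactions of -1.78 ± 0.43 and -1.98 ± 0.57, and Ccr2, the chemokine receptor of entering monocytes, of -2.49 ± 0.66. Tlr12, a toll-like receptor of the mouse that is in none of the lists, had 0.786, 0.651 and 1.02 CPM in KO at day 7 and 2.23, 1.74 and 1.60 CPM in untreated KO, against 2.82, 2.43 and 2.95 CPM in WT at day 7 and 1.05, 0.881 and 1.303 CPM in untreated WT. It fell in KO (-1.18 ± 0.34, adjusted p = 0.0336) and rose in WT (1.34 ± 0.33, adjusted p = 0.0152).

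Cytokines and chemokines also gave more calls in WT. In KO 2 of 29 rose (Lif and Cxcl1, against 8.57% of all genes) and in WT 19 did (8.52% of all genes). The median change was 1.13 in KO and 3.82 in WT. The interaction was below 0 for 27 of 29 and had an unadjusted p under 0.05 for 10, or at least 5 with any of the 12 libraries left out, with a median of -2.56, and -2.46 with the 4 members that had no count in a group set at the floor. Il1b, the pyrogenic cytokine of macrophages, had 1.99, 1.42 and 3.10 CPM in KO at day 7 and 1.10, 0.782 and 0.418 CPM in untreated KO, against 22.5, 48.5 and 8.64 CPM in WT at day 7 and 0.168, 0.268 and 0.478 CPM in untreated WT. The day 7 libraries were above the untreated ones in both genotypes. Il1b gave 1.497 ± 0.83 in KO (adjusted p = 0.270) and rose in WT (6.43 ± 0.97, adjusted p = 0.00147), with an interaction of -4.93 ± 1.252. Il6 was at most 0.324 CPM in KO at day 7 and 2.90 CPM in WT at day 7, and it rose in WT (adjusted p = 0.00607). Tnf, which had 2.27, 4.27 and 11.5 CPM in KO at day 7 and 2.39, 0.888 and 1.48 CPM in untreated KO, against 5.88, 15.2 and 33.8 CPM in WT at day 7 and 0.967, 0.728 and 0.738 CPM in untreated WT, gave -2.56 ± 0.92. The interaction was -6.52 ± 1.85 for Cxcl9, a chemokine induced by interferon gamma that draws T cells, and -4.26 ± 1.35 for Il11, a cytokine of stromal cells. The value for Il11 was -2.58 without WT day 7 replicate 2.

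Proteases of the extracellular matrix also had lower responses in KO. In KO 0 of 15 rose (8.57% of all genes) and 1 fell (Mmp7, against 4.07% of all genes), and in WT 10 rose (8.52% of all genes). The interaction of Mmp7 was -9.20, and -3.99 without untreated KO replicate 3. The interaction was below 0 for all 15, with a median of -1.86 and 8 at an unadjusted p under 0.05, or 4 without WT day 7 replicate 2 and 5 without untreated WT replicate 3. Mmp13, a collagenase, had 2.82, 1.95 and 2.04 CPM in KO at day 7 and 3.05, 1.10 and 3.23 CPM in untreated KO, against 28.0, 108 and 15.3 CPM in WT at day 7 and 2.02, 0.460 and 1.997 CPM in untreated WT. The KO libraries of both times overlapped, and each WT library at day 7 was above every other library. The interaction was -5.19 ± 1.13, and -3.98 without WT day 7 replicate 2. Mmp10, a stromelysin, gave -6.57 ± 1.46, and Timp1, an inhibitor of these proteases, gave -2.77 ± 0.85.

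**Figure D3:**
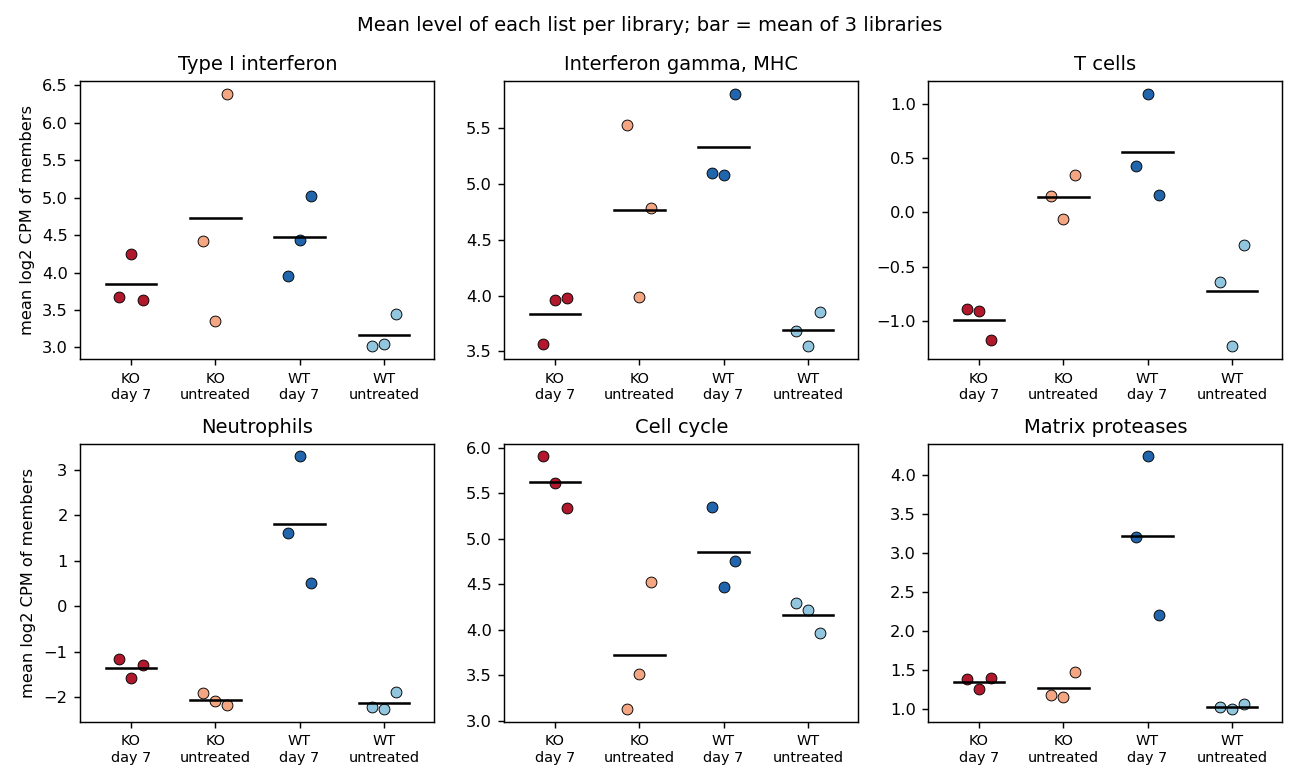
Mean log2 CPM of the tested members of 6 lists, a point per library and a bar at the mean of 3 libraries, for KO at day 7, untreated KO, WT at day 7 and untreated WT. In the neutrophil and matrix protease panels the WT libraries at day 7 stand above all others, in the T cell panel the day 7 libraries lie below the untreated ones in KO and above them in WT, and in the type I interferon panel untreated KO replicate 3 is the highest point.

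Among antimicrobial genes of the epithelium and of neutrophils, 2 of 26 rose in KO (Pla2g2a and Slpi, against 8.57% of all genes) and 14 rose in WT (8.52% of all genes). The interaction was below 0 for 21 of 26 and had an unadjusted p under 0.05 for 12 in that direction and 2 in the other, with a median of -2.15. Duoxa2, the maturation factor of the dual oxidase that makes hydrogen peroxide at the mucosal surface, had 32.1, 45.3 and 104 CPM in KO at day 7 and 28.6, 16.1 and 51.7 CPM in untreated KO, against 98.7, 150.3 and 207 CPM in WT at day 7 and 7.06, 8.20 and 14.8 CPM in untreated WT. The KO libraries of both times overlapped and the WT libraries did not. It gave 0.91 ± 0.49 in KO (adjusted p = 0.254) and rose in WT (3.93 ± 0.55, adjusted p = 0.00103), with an interaction of -3.02 ± 0.71. Saa3, an acute phase apolipoprotein, had 1.57, 5.25 and 2.45 CPM in KO at day 7 and 1.33, 0.320 and 18.1 CPM in untreated KO, against 91.6, 131 and 32.2 CPM in WT at day 7 and 0.168, 0.0766 and 3.86 CPM in untreated WT, with an interaction of -7.05 ± 1.79, and -4.02 without untreated KO replicate 3. The large interactions of the lectins Reg3b (-19.25 ± 4.53) and Reg3g (-15.49 ± 3.84) came with high levels in single libraries, and became -10.01 and -7.52 without untreated KO replicate 3, and -11.93 and -9.62 without WT day 7 replicate 1. Reg3b had 0.139, 0.0813 and 0.509 CPM in KO at day 7 and 0.235, 1.07 and 1226 CPM in untreated KO, against 993, 3.61 and 0.638 CPM in WT at day 7 and 0.799, 0.306 and 1.61 CPM in untreated WT. It was at most 0.509 CPM in KO at day 7 and above 4 CPM in 1 library each of untreated KO and WT at day 7.

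Several genes of mature epithelium were also high in that untreated KO library. Of 28 genes of absorptive colonocytes, 8 had an interaction below 0 at an unadjusted p under 0.05, and 2 without untreated KO replicate 3, when the list's median was 0.14 in place of -0.38. That median was -0.23 without WT day 7 replicate 3 and -0.57 without untreated WT replicate 3. Alpi, intestinal alkaline phosphatase, had an interaction of -6.08 ± 1.95, and -3.06 without that library. Ceacam1, an adhesion molecule of the epithelial surface, had 2413, 1915 and 2404 CPM in KO at day 7 and 3112, 2161 and 8109 CPM in untreated KO, against 4793, 2714 and 3929 CPM in WT at day 7 and 1649.5, 1640.5 and 2467 CPM in untreated WT, with an interaction of -1.98 ± 0.52, and -1.23 without it.

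Goblet cell genes gave a median interaction of -0.51, with 18 of 19 below 0 and 5 at an unadjusted p under 0.05 in that direction. With a library left out, the median ran from -0.96 to -0.33 and that count from 0 to 8, the lowest count and the highest median without untreated KO replicate 3 and the lowest median without untreated WT replicate 3. Muc2, the gel-forming mucin of the colon, had 2443, 2328 and 2909 CPM in KO at day 7 and 1428, 1129 and 10179 CPM in untreated KO, against 5949, 2903 and 4262 CPM in WT at day 7 and 1229, 900.0 and 3379 CPM in untreated WT. Its interaction of -1.98 ± 0.92 became -0.25 without untreated KO replicate 3. Retnlb, a goblet cell protein released in inflammation, had 3.93, 13.01 and 88.9 CPM in KO at day 7 and 0.352, 0.107 and 194 CPM in untreated KO, against 293, 26.7 and 102 CPM in WT at day 7 and 0, 0 and 0.868 CPM in untreated WT. It rose in WT (8.96 ± 2.49, adjusted p = 0.0255), and its interaction of -9.84 ± 2.95 became -1.70 without untreated KO replicate 3 and -15.57 without untreated WT replicate 3.

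Enpep, the aminopeptidase of the brush border that cleaves angiotensin, had an interaction between -3.16 and -2.37 with each library left out in turn. It had 3.84, 3.46 and 3.06 CPM in KO at day 7 and 25.2, 21.8 and 20.1 CPM in untreated KO, against 6.94, 12.4 and 4.03 CPM in WT at day 7 and 5.63, 6.82 and 8.16 CPM in untreated WT. The untreated KO libraries stood above all others and the WT libraries overlapped. Enpep fell in KO (-2.69 ± 0.38, adjusted p = 4.87e-04), and the interaction was -2.87 ± 0.52 (unadjusted p = 6.10e-05). Tmem243, a membrane protein, fell in KO (-0.91 ± 0.11, adjusted p = 1.77e-04) and gave -0.19 ± 0.11 in WT (adjusted p = 0.246).

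Genes of the regenerating epithelium, a fetal-like state that follows injury, rose in KO for 2 of 20 (8.57% of all genes) and in WT for 5 of 20 (8.52% of all genes). The median interaction was -1.07, or -0.58 without untreated KO replicate 2 and -0.20 without WT day 7 replicate 2. Ly6a, the surface protein Sca-1 that marks this state, had 318, 538 and 599.5 CPM in KO at day 7 and 279.9, 159 and 268 CPM in untreated KO, against 705, 814 and 1108 CPM in WT at day 7 and 114, 132 and 112 CPM in untreated WT. It rose in KO (1.04 ± 0.33, adjusted p = 0.0491) and in WT (2.88 ± 0.35, adjusted p = 6.40e-04), with an interaction of -1.83 ± 0.46. Ereg, a growth factor of the epidermal growth factor family, gave -2.94 ± 1.06, and -1.48 without WT day 7 replicate 2.

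**Figure D4:**
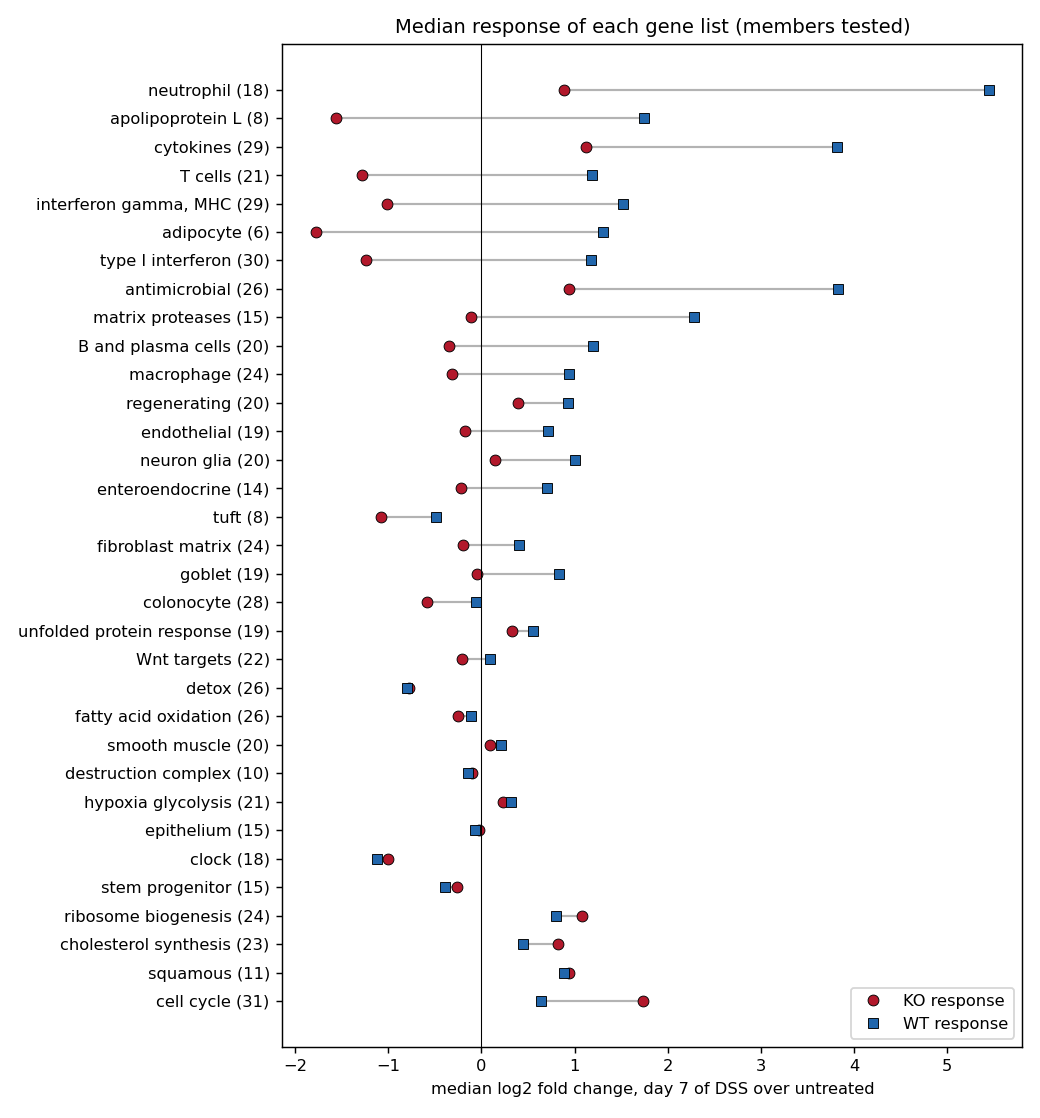
Median log2 change between day 7 of DSS and no treatment over the tested members of 33 gene lists, in KO (circles) and WT (squares), ordered by the median interaction from the lowest at the top; numbers in brackets are the members tested. Neutrophil, cytokine and antimicrobial genes lie above 0 in both genotypes and farther out in WT. Both interferon lists, the T cell list and the apolipoprotein L list are among several that lie below 0 in KO and above it in WT. The cell cycle list lies farther out in KO.

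Most cell division genes had a higher response in KO. Of 31 genes of the cell cycle and DNA replication, 25 rose in KO (8.57% of all genes) and 15 in WT (8.52% of all genes). None fell in either (4.07% of all genes in KO and 7.77% in WT). The median change was 1.74 in KO and 0.64 in WT, and the median interaction was 0.83, with 26 of 31 above 0 and 9 at an unadjusted p under 0.05 against 6.87% of all genes in that direction. That count was 16 without WT day 7 replicate 1, 5 without WT day 7 replicate 2 and 17 without untreated KO replicate 3. The 15 genes that rose in both included the replication genes Mcm2, Mcm3, Mcm4, Mcm5, Mcm6, Mcm7 and Pcna. The 10 that passed in KO and not in WT were Mki67, Top2a, Cdk1, Aurka, Aurkb, Plk1, Foxm1 and Bub1b, mostly of mitosis, and Tk1 and Tyms, which make nucleotides. The difference between these sets was not tested.

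Mki67 (chr7:135689784-135716361), the marker of dividing cells, had 386, 377 and 205 CPM in KO at day 7 and 30.8, 42.2 and 189 CPM in untreated KO, against 217, 85.8 and 109 CPM in WT at day 7 and 229, 209 and 118 CPM in untreated WT. The KO libraries at day 7 were above the untreated ones and the WT libraries overlapped. It rose in KO (1.89 ± 0.59, adjusted p = 0.0499) and gave -0.43 ± 0.58 in WT (adjusted p = 0.635), with an interaction of 2.32 ± 0.82, or 3.57 without untreated KO replicate 3. The lowest of all 12 levels were those of untreated KO replicates 1 and 2. Aurkb, a kinase of chromosome segregation, had 44.0, 38.1 and 25.0 CPM in KO at day 7 and 2.78, 4.26 and 15.6 CPM in untreated KO, against 26.1, 12.6 and 12.9 CPM in WT at day 7 and 17.8, 17.4 and 11.1 CPM in untreated WT, with an interaction of 2.08 ± 0.72, or 3.17 without that library. Plk1, a mitotic kinase, gave 1.26 ± 0.48. Rrm1, the large subunit of ribonucleotide reductase, had 139.7, 123 and 104 CPM in KO at day 7 and 36.6, 39.7 and 42.6 CPM in untreated KO, against 88.8, 60.4 and 72.8 CPM in WT at day 7 and 45.4, 43.6 and 33.1 CPM in untreated WT. It rose in KO (1.63 ± 0.16, adjusted p = 1.13e-04) and in WT (0.86 ± 0.16, adjusted p = 0.00313), and the interaction was 0.76 ± 0.22.

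Without untreated KO replicate 3, edgeR called 101 genes for the interaction, 91 higher and 10 lower. Of the 31 cell cycle genes, 12 were then called higher and 17 had an unadjusted p under 0.05. Without untreated KO replicate 2 it called 36 genes, 3 higher and 33 lower, and these included 9 of the 30 type I interferon genes and 3 of the 29 genes of interferon gamma and antigen presentation. The calls of these fits shared 7 genes, 6.93% of the 101 and 19.4% of the 36. Leaving out any other of the 12 libraries gave 0 calls.

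Ribosome biogenesis rose in both genotypes, 23 of 24 genes in KO (8.57% of all genes) and 20 of 24 in WT (8.52% of all genes). The medians were 1.08 and 0.80, and the median interaction was 0.28, or 0.14 without KO day 7 replicate 3. Ncl, the nucleolar protein nucleolin, had 641, 515 and 577 CPM in KO at day 7 and 285, 319.9 and 269 CPM in untreated KO, against 453, 441 and 400.4 CPM in WT at day 7 and 344, 331 and 327 CPM in untreated WT. It rose in KO (0.99 ± 0.12, adjusted p = 2.33e-04) and just missed in WT (0.37 ± 0.12, adjusted p = 0.0512), with an interaction of 0.62 ± 0.17. Polr1b, a subunit of the polymerase that transcribes ribosomal RNA, gave 0.70 ± 0.25. Among genes of cholesterol synthesis, 4 of 23 rose in KO (8.57% of all genes) and 1 in WT (8.52% of all genes), and the median interaction was 0.34 with none at an unadjusted p under 0.05. It was 0.14 without WT day 7 replicate 2, 0.15 without untreated KO replicate 2, 0.22 without untreated WT replicate 1, 0.69 without untreated KO replicate 3 and 0.72 without WT day 7 replicate 3, the last with 5 genes at that p.

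Of 22 targets of Wnt and beta-catenin, 3 had an unadjusted p under 0.05, all with a higher response in KO (6.87% of all genes in that direction), and the median was -0.22, or -0.36 to 0.18 with a library left out, the highest without WT day 7 replicate 2 and the lowest without WT day 7 replicate 3. Axin2, the feedback inhibitor that is a standard readout of the pathway, had 35.6, 31.8 and 38.6 CPM in KO at day 7 and 26.7, 31.8 and 32.4 CPM in untreated KO, against 16.5, 15.2 and 19.7 CPM in WT at day 7 and 23.8, 24.4 and 29.3 CPM in untreated WT. The WT libraries at day 7 were all below the untreated ones, and the KO libraries overlapped. Axin2 gave 0.22 ± 0.18 in KO (adjusted p = 0.457) and fell in WT (-0.59 ± 0.18, adjusted p = 0.0351). The interaction was 0.82 ± 0.25 (unadjusted p = 0.00520). The ubiquitin ligases that remove Wnt receptors, which are also feedback genes, gave 0.94 ± 0.34 for Znrf3 and 0.57 ± 0.26 for Rnf43, or 0.37 for Rnf43 without WT day 7 replicate 1. By sign, 10 of the 22 targets were above 0 and 12 below. Cd44, of the same list, had an interaction of -1.62, and -0.81 without untreated KO replicate 3.

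Lgr5, the marker of crypt stem cells, had 3.70, 1.71 and 1.44 CPM in KO at day 7 and 5.67, 4.41 and 7.79 CPM in untreated KO, against 2.61, 0.178 and 0.491 CPM in WT at day 7 and 7.78, 4.60 and 12.03 CPM in untreated WT. It was lower at day 7 in every library of both genotypes. It gave -1.38 ± 0.71 in KO (adjusted p = 0.227) and fell in WT (-2.85 ± 0.75, adjusted p = 0.0201), with an interaction of 1.47 ± 1.004. That interaction was 0.94 without KO day 7 replicate 1 and 3.17 without WT day 7 replicate 1. Myc and Ccnd1, growth genes that are also Wnt targets, rose in KO (1.48 ± 0.26 with adjusted p = 0.00225 for Myc, and 0.92 ± 0.22 with adjusted p = 0.0146 for Ccnd1) and in WT (1.43 ± 0.26 with adjusted p = 0.00340, and 1.29 ± 0.22 with adjusted p = 0.00247). Their interactions, 0.05 ± 0.37 and -0.37 ± 0.31, were within 2 SE of 0. With a library left out, Ccnd1 gave -0.55 to -0.16, and the sign for Myc changed. Hopx and Lrig1, of quiescent progenitors, gave 0.73 ± 0.34 and 0.53 ± 0.26.

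Hes1 (chr16:30064384-30067796), the transcription repressor through which Notch holds cells in the absorptive line, had the smallest p among genes with a higher response in KO. It had 75.7, 71.2 and 86.6 CPM in KO at day 7 and 62.6, 75.3 and 58.3 CPM in untreated KO, against 47.2, 49.1 and 48.3 CPM in WT at day 7 and 93.6, 74.3 and 85.4 CPM in untreated WT. The WT libraries at day 7 were the lowest of all 12. Hes1 gave 0.25 ± 0.13 in KO (adjusted p = 0.215) and fell in WT (-0.81 ± 0.13, adjusted p = 0.00168), with an interaction of 1.06 ± 0.18 (unadjusted p = 2.57e-05, adjusted p = 0.168). With each of the 12 libraries left out in turn the interaction stayed between 0.98 and 1.18.

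Several of the other genes with the smallest p on this side fell in WT. Sh3rf2, a RING-domain protein, had 29.01, 36.1 and 33.9 CPM in KO at day 7 and 21.9, 27.4 and 18.3 CPM in untreated KO, against 13.997, 12.4 and 18.9 CPM in WT at day 7 and 36.2, 32.0 and 24.9 CPM in untreated WT, with an interaction of 1.59 ± 0.29. Kyat1, an aminotransferase that turns kynurenine into kynurenic acid, had 37.5, 49.8 and 39.0 CPM in KO at day 7 and 42.1, 31.4 and 16.9 CPM in untreated KO, against 35.8, 23.0 and 43.4 CPM in WT at day 7 and 105, 77.1 and 138 CPM in untreated WT, with an interaction of 2.13 ± 0.42. Each fell in WT (adjusted p = 0.00493 for Sh3rf2 and 0.00313 for Kyat1). Zfp64 (0.998 ± 0.20), Cep89 (0.99 ± 0.21), Miip (0.86 ± 0.18) and Usp49 (0.95 ± 0.21) also fell in WT and did not pass in KO. Arhgef26 passed both ways, rising in KO (0.43 ± 0.12, adjusted p = 0.0248) and falling in WT (-0.41 ± 0.12, adjusted p = 0.0269).

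Erfe, Ttf2 and Hjurp rose in KO. Erfe, which encodes the hormone erythroferrone, had 20.6, 13.3 and 15.3 CPM in KO at day 7 and 5.79, 6.54 and 6.24 CPM in untreated KO, against 11.1, 7.75 and 11.6 CPM in WT at day 7 and 13.1, 10.7 and 10.1 CPM in untreated WT. It rose in KO (1.403 ± 0.22, adjusted p = 8.67e-04) and did not pass in WT (-0.15 ± 0.21, adjusted p = 0.648), with an interaction of 1.56 ± 0.30. Ttf2, a transcription termination factor, and Hjurp, the chaperone of the centromeric histone, did not pass in WT either, with interactions of 1.19 ± 0.26 and 0.87 ± 0.19.

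Of the 183 genes that moved opposite ways without overlap, 97 were lower in KO and higher in WT at day 7 (0.536% of the genes tested) and 86 were higher in KO and lower in WT (0.475%). By size, the leading genes of the first kind were Ido1, Phf11b, Btnl2, Ctla4 and Tnfrsf23. Phf11b, which had 0.370, 0.407 and 0.417 CPM in KO at day 7 and 0.508, 0.462 and 23.6 CPM in untreated KO, against 2.19, 1.54 and 1.67 CPM in WT at day 7 and 0.336, 0.536 and 0.912 CPM in untreated WT, had an interaction of -5.94 ± 1.60, and -1.88 without untreated KO replicate 3. Btnl2, a butyrophilin-like protein that restrains T cells, gave -5.34 ± 1.29, and -3.50 without that library. Tnfrsf23, a decoy receptor of the mouse for the death ligand TRAIL, had 2.17, 2.52 and 2.27 CPM in KO at day 7 and 3.32, 4.12 and 7.83 CPM in untreated KO, against 9.96, 17.8 and 3.53 CPM in WT at day 7 and 1.72, 1.302 and 1.74 CPM in untreated WT, with an interaction of -3.84 ± 0.79.

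The leading gene of the second kind was Cps1, the mitochondrial enzyme that starts the urea cycle. It had 15.4, 10.4 and 8.89 CPM in KO at day 7 and 4.69, 6.00 and 3.46 CPM in untreated KO, against 2.44, 0.710 and 3.98 CPM in WT at day 7 and 14.5, 15.6 and 9.03 CPM in untreated WT. The KO libraries were all higher at day 7 and the WT libraries all lower. Cps1 gave 1.29 ± 0.52 in KO (adjusted p = 0.123) and fell in WT (-2.44 ± 0.55, adjusted p = 0.00912), with an interaction of 3.73 ± 0.75. Capsl (1.96 ± 0.73), Bnipl (1.85 ± 0.46), Rgcc (1.80 ± 0.50) and Dnah8 (1.78 ± 0.49) followed.

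**Figure D5:**
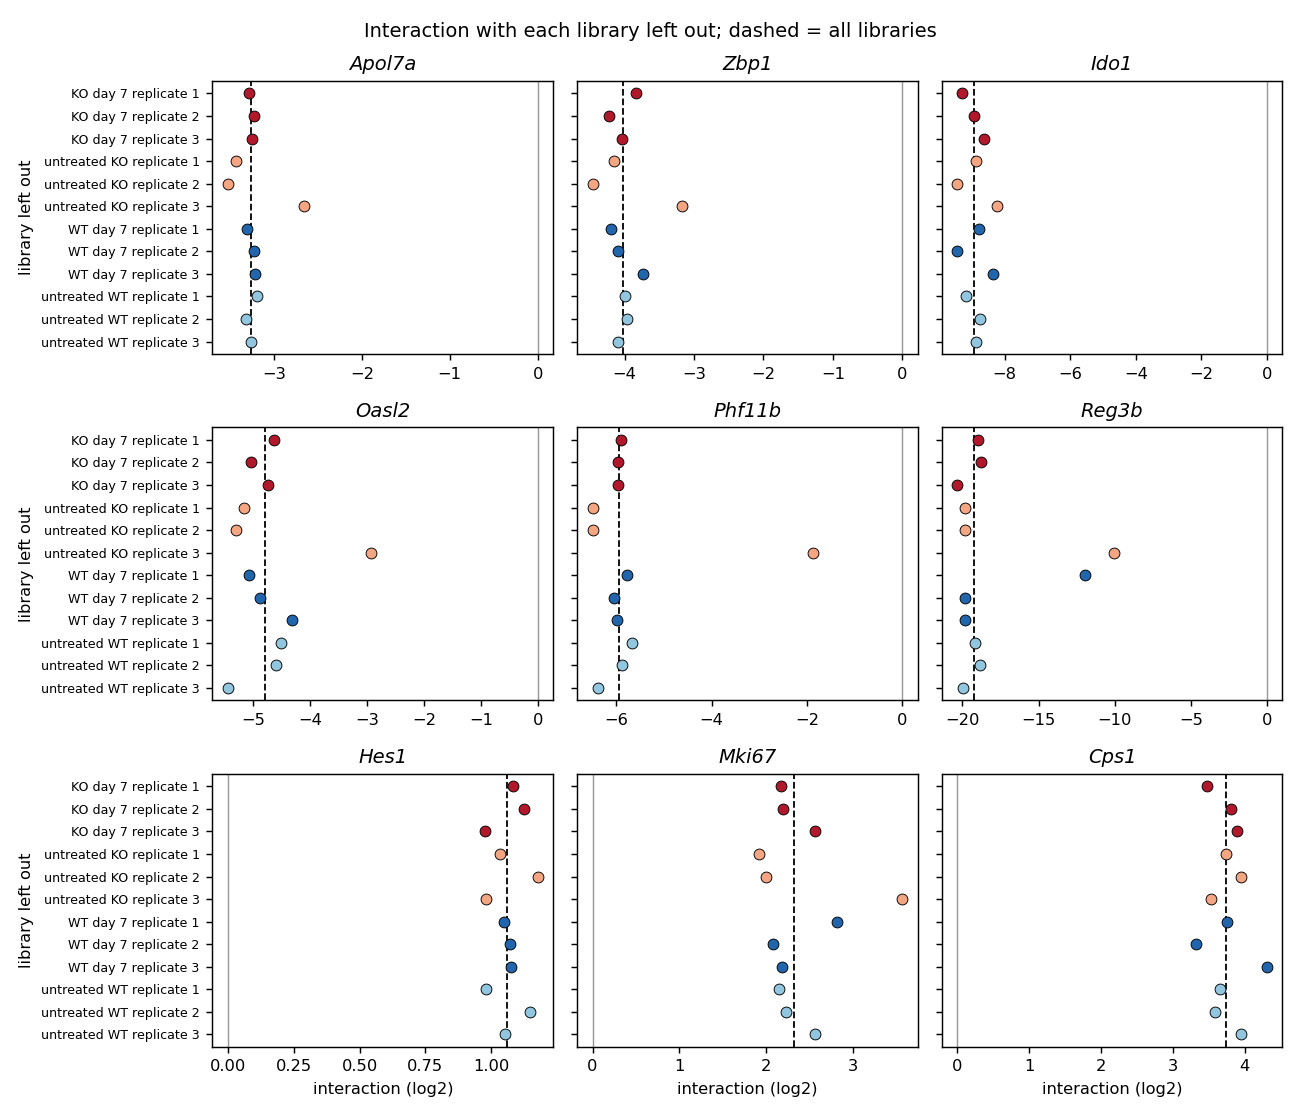
Interaction on the log2 scale of 9 genes when each of the 12 libraries is left out in turn, a row per library; the dashed line is the value with all libraries and the grey line is 0. Apol7a, Zbp1, Ido1, Hes1 and Cps1 stay near their value, while Oasl2, Phf11b and Reg3b move toward 0 and Mki67 moves away from it without untreated KO replicate 3.

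Smooth muscle genes had a median interaction of -0.04, with 0 of 20 at an unadjusted p under 0.05, and -0.38 to 0.55 with a library left out, the lowest without WT day 7 replicate 1 and the highest without WT day 7 replicate 2. Before treatment, 17 of the 20 had KO libraries all below the WT libraries (10.2% of all genes). The 4 defining markers of smooth muscle summed to 2627 to 3183 CPM in KO at day 7 and 2343 to 2686 CPM in untreated KO, against 2259 to 7883 CPM in WT at day 7 and 3828 to 5630 CPM in untreated WT. Genes of enteric neurons and glia gave a median of -0.88, with 20 of 20 below 0 and 1 at an unadjusted p under 0.05 (Gfap, -1.64 ± 0.68), against 6.87% of all genes in that direction. Without WT day 7 replicate 2 the median was -0.03 and Gfap gave -0.65; the count at that p was 0 to 8 with a library left out, 8 being without WT day 7 replicate 3. Of 19 endothelial genes, 4 had an unadjusted p under 0.05, all below 0 (1 without WT day 7 replicate 2 and 11 without WT day 7 replicate 3), among them Icam1, the adhesion molecule that binds leukocytes (-2.02 ± 0.65). With smooth muscle expression as a covariate edgeR again called 0 genes.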

How the data were processed

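RNA of mouse colon was sequenced from Illumina libraries. The submitters' processing notes name STAR 2.7.6a, RSEM 1.3.1 and GRCm38, and no source used here gives the annotation release or strand setting. The deposited tables give an expected count for each gene, which RSEM estimates by sharing reads among genes, so values of near-identical genes are uncertain. Expected counts were rounded to whole numbers. Genes were kept with edgeR's filterByExpr (minimum count 10, minimum total 15), scaled by TMM, and tested in edgeR 4.0.16 (R 4.3.3) with the robust quasi-likelihood F test in a fit of 18 colon libraries in 6 groups, at an adjusted p of 0.05. The 6 tumour libraries were not analysed here. DESeq2 1.42.0 and limma 3.58.1 (voom) were alternatives, with other filters, scaling, covariates and left-out libraries. CPM are counts divided by TMM-scaled library size and set to a common total; errors are SE of the log2 change. The code was tested on simulated data.

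The rule for named genes takes Axin1 and 9 other genes of the pathway, of division and of colitis, the 12 genes with the smallest p in each direction at 2 CPM or more in a group, up to 4 genes a list by smallest p, and the 5 genes with the largest size in each direction among those moving opposite ways. The text gives part of the genes so named, picked after their values were seen. The members and lists were chosen with earlier results of these data known. Replicate numbers only name libraries in accession order.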

Additional observations from a re-analysis of the deposited data

Results flagged for a closer look

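The responses of 183 genes went opposite ways in KO and WT, with no overlap between day 7 and untreated libraries in either genotype. Among those lower in KO and higher in WT at day 7, the leading interactions were -8.94 for Ido1, -5.94 for Phf11b, -5.34 for Btnl2, -4.90 for Ctla4 and -3.84 for Tnfrsf23. Among those higher in KO and lower in WT, they were 3.73 for Cps1, 1.96 for Capsl, 1.85 for Bnipl, 1.80 for Rgcc and 1.78 for Dnah8. The difference for each gene was tested by edgeR and none passed an adjusted p of 0.05. Groups of 3 libraries are too small to test a single library as standing apart.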

How the results depend on the processing

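For the interaction, edgeR called 0 genes and 2487 had an unadjusted p under 0.05; DESeq2 called 349, limma voom 246, and leaving out each library in turn in edgeR gave 0 to 101 calls (36 without untreated KO replicate 2, 101 without untreated KO replicate 3). Alternatives chosen after seeing the data were DESeq2 without WT day 7 replicate 2 and untreated KO replicate 3, with 278 calls, and DESeq2 with the Y-linked covariate, with 389. The KO response, 2288 calls, had 5397 by voom, 1487 without a filter, 1098 with the Y-linked covariate, 949 without the 4 libraries whose sequencing sample numbers repeat, 3478 by DESeq2 without the 2 libraries above, and 1278 to 2722 with a library left out. The WT response, 2949 calls, had 896 with the Y-linked covariate, 1090 without those 4 libraries, 1947 by DESeq2 with the covariate, and 1369 to 3451 with a library left out. The cause was not tested.

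Among the interactions of named genes, 16 values changed sign, 223 passed the threshold and 1843 kept direction and side. All 16 were of Myc or Axin1, whose interactions are near 0. Myc gave -0.11 by voom, -0.0138 without a filter, -0.0454 with the 12 libraries alone, -0.12 without the 4 libraries and -0.0112 by DESeq2 with the covariate, and -0.33 to 0.29 with a library left out. Axin1 gave -0.0937 to 0.0637 with a library left out. The median of all genes' interactions stayed between -0.07 and 0.06 under these settings. No paired analysis was possible because the labels give no replicate numbers.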
